A study of Mus with 6 samples.

Results

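The lens identity transcription factors are 10 genes whose products set up the lens in the embryo and keep its cells lens-like: Pax6, Six3, Meis1, Tfap2a, Sox2, Mab21l1, Foxe3, Pitx3, Prox1 and Maf. They were chosen by name for their known roles in lens development, with earlier results of these data in view, and their rows were taken by Ensembl gene ID from the 55421 genes counted in each library. All 10 passed the filter on low counts and were among the 16810 genes tested. Libraries were made from lens capsules with attached lens epithelial cells (LECs) of wildtype C57BL/6 mice, taken right after the fiber cell mass was removed (0 h post cataract surgery, PCS) or 6 h later (6 h PCS). There were 3 libraries per time point, each a pool of 5 capsules, and no group carried a transgene or deletion. Mice were 2 months old by the labels and 3 to 5 months old by the methods of the study. By the labels, the eyes of a mouse were operated one after the other, 6 h apart, so capsules of both time points may come from the same animals, and which pools share animals is not given. The 0 h capsules had also been through the surgery, so no library stands for an undisturbed lens.

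A lens forms from a patch of head ectoderm in which Pax6, Six3, Meis1, Sox2 and Tfap2a act together, and the patch folds into a vesicle that needs Foxe3, Pitx3 and Mab21l1 to grow and to close. The front of the vesicle stays a sheet of dividing epithelium, in which Pax6 and Foxe3 remain on throughout life. The cells at the back leave the cell cycle and become fiber cells, a step for which Prox1 and Maf are needed and in which the crystallin genes are switched on. The comparison asks whether the RNA of these factors had already moved 6 h after the fiber cells were taken away, the time at which the study profiled the RNA of injured LECs.

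Levels are in TMM-normalized CPM, which divides a count by the scaled total of its library, and ± marks the SD among the 3 libraries of a time point. Libraries at 0 h PCS had 20253239 to 24701039 gene counts, and those at 6 h PCS had 18039974 to 22496116. The factors themselves had 405 to 16817 counts per library, so that counting error was 0.771% to 4.97% of a value. Spread between libraries was larger, since the coefficient of variation was 3.71% to 15.8% at 0 h PCS and ran from 2.77% to 25.9% at 6 h PCS. Groups were compared with edgeR's quasi-likelihood test, and adjusted p-values are those of this test after Benjamini-Hochberg adjustment over all tested genes (SE: standard error). An exact permutation test was not used, since with 3 libraries a group its two-sided p is at least 0.10. In RNA from whole capsules, fewer cells of a type and less RNA per cell cannot be told apart.

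Of the 10 factors, 4 fell by 6 h PCS at an FDR of at most 0.05: Pitx3, Prox1, Sox2 and Mab21l1. None rose, by edgeR's quasi-likelihood test also at an unadjusted p below 0.05, and none with DESeq2 or edgeR's exact test. Among all tested genes, 2.02% passed this limit as lower and 6.31% as higher at 6 h PCS. By the same test 0 factors were DEGs, which also need a change above 2-fold, with DESeq2 and the exact test as well, while 0.821% of tested genes were lower DEGs and 4.53% higher DEGs. At an unadjusted p below 0.05 there were 6 factors, the other two being Pax6 and Tfap2a, all with a negative sign, where 9.77% of tested genes passed this limit as lower and 13.3% as higher. The 6 h libraries all lay below the 0 h libraries for 6 factors and all above them for 1, Foxe3, where 15.3% of tested genes were separated downwards and 15.3% upwards. The median log2 fold change was −0.46 over the 10 factors and −0.003 over all tested genes, and 8 of the 10 had a negative sign. By level at 0 h PCS the factors lay between percentiles 79.1 (Meis1) and 99.5 (Prox1) of tested genes. The shares given here are over genes of all levels, and shares over genes of like level were not computed. How firm the count is depends on single libraries. It was 1 without replicate 1 at 0 h PCS (Pitx3), 2 without replicate 3 at 0 h PCS (Pitx3 and Prox1), and 3 to 5 without each other library. Calls over all tested genes shrank as well, with 0.330% called lower without replicate 1 at 0 h PCS, 0.514% without replicate 3 at 0 h PCS and 0.902% to 1.79% without each other library.

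**Figure D1:**
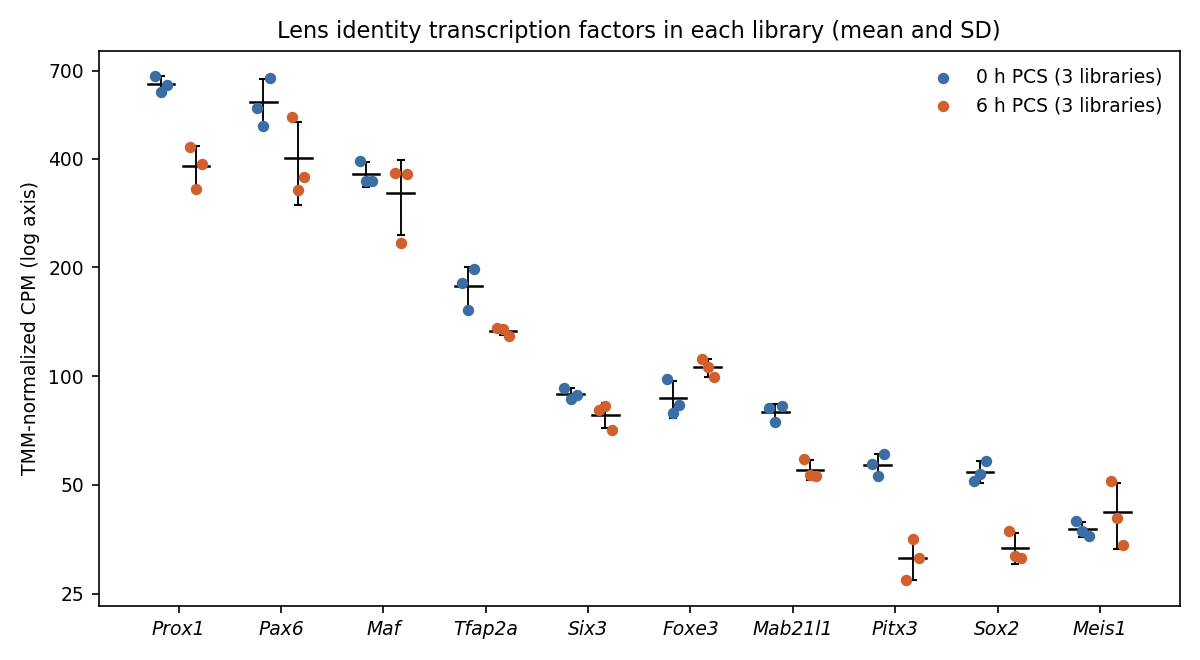
Level of each lens identity factor in every library, in TMM-normalized CPM on a log axis. Points are libraries (blue 0 h PCS, orange 6 h PCS, 3 each), horizontal bars are means and whiskers are SDs. The orange points lie wholly below the blue ones for Prox1, Tfap2a, Six3, Mab21l1, Pitx3 and Sox2 and wholly above for Foxe3. CPM is not corrected for gene length, so heights compare time points within a gene and not genes with each other.

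Pitx3 is a homeodomain factor of the lens vesicle and epithelium, known from the aphakia mouse, which lacks a proper lens (chromosome 19, 46135281 to 46148325, GRCm38.p6). It was at 57.0, 53.0 and 60.8 CPM in replicates 1 to 3 at 0 h PCS and at 27.2, 35.4 and 31.4 CPM at 6 h PCS. Every 6 h library was well below every 0 h library, and the replicates of a time point lay close together. The mean fell from 56.9 ± 3.89 to 31.3 ± 4.10 CPM (SD, n = 3), to 55.1% of the 0 h level in the fit. This was a log2 fold change of −0.86 (SE 0.150, 95% interval −1.20 to −0.53, edgeR adjusted p = 0.00777), the strongest fall among the 10 factors in the fit of all libraries. Without replicate 1 at 6 h PCS, Prox1 (−0.85) and Sox2 (−0.78) fell more than Pitx3 (−0.77). Pitx3 passed the FDR limit in all 15 other fits that were run, including those without each of the 6 libraries, where its log2 fold change ran from −0.98 to −0.77.

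Prox1, a homeodomain factor needed for LECs to leave the cell cycle and for fiber cells to lengthen, also fell (chromosome 1, 190118035 to 190170827). Its libraries were at 678, 613 and 640 CPM at 0 h PCS and at 432, 331 and 386 CPM at 6 h PCS. The groups were far apart, with the highest 6 h value still below the lowest 0 h value. Means were 644 ± 32.6 and 383 ± 50.7 CPM (SD, n = 3), and the fitted level at 6 h PCS was 59.5% of that at 0 h PCS. The log2 fold change was −0.75 (SE 0.144, 95% interval −1.07 to −0.43, edgeR adjusted p = 0.0119). Without replicate 1 at 0 h PCS the adjusted p was 0.0709, and it was at most 0.0457 without each other library.

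Sox2 is an HMG-box factor that partners Pax6 on crystallin enhancers in the early lens (chromosome 3, 34649995 to 34652461). In CPM it was 51.1, 53.7 and 58.4 at 0 h PCS and 37.3, 31.8 and 31.4 at 6 h PCS. The time points did not overlap, and replicate 1 was the highest at 6 h PCS. The mean fell from 54.4 ± 3.68 to 33.5 ± 3.28 CPM (SD, n = 3), with a log2 fold change of −0.70 (SE 0.142, 95% interval −1.02 to −0.38, edgeR adjusted p = 0.0151). The call was lost without replicate 1 at 0 h PCS (adjusted p = 0.0567) and without replicate 3 at 0 h PCS (adjusted p = 0.0679).

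Mab21l1 acts downstream of Pax6 in the growth of the lens vesicle, and its protein has a nucleotidyltransferase-like fold in place of a classical DNA-binding domain (chromosome 3, 55782510 to 55785287). It was at 81.7, 74.7 and 82.6 CPM at 0 h PCS and at 59.1, 53.2 and 52.8 CPM at 6 h PCS. Both groups were tight and did not overlap. From 79.6 ± 4.33 to 55.0 ± 3.52 CPM (SD, n = 3), the log2 fold change was −0.53 (SE 0.128, 95% interval −0.82 to −0.25, edgeR adjusted p = 0.0316). Mab21l1 was the least firm of the 4 calls, since it passed the FDR limit only without replicate 1 at 6 h PCS among the 6 fits that left out a library, and its adjusted p reached 0.141 without replicate 1 at 0 h PCS.

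The remaining factors of the early eye did not pass the test. Pax6, the paired-box and homeodomain factor on which the eye depends, varied more between libraries than any other factor at both time points (chromosome 2, 105668896 to 105698410). It was at 553, 493 and 671 CPM at 0 h PCS and at 522, 329 and 357 CPM at 6 h PCS. Replicate 1 at 6 h PCS lay within the 0 h range, while the other two 6 h libraries were below it. Means were 573 ± 90.3 and 402 ± 104 CPM (SD, n = 3), and the log2 fold change was −0.51 (SE 0.199, 95% interval −0.95 to −0.066, edgeR adjusted p = 0.156). Without replicate 1 at 6 h PCS it was −0.74 with an adjusted p of 0.0234, and without replicate 3 at 0 h PCS it was −0.38 with an adjusted p of 0.404. The interval therefore holds falls as large as those of Prox1 or Pitx3 and falls close to 0.

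Tfap2a encodes AP-2 alpha, which is needed for the lens vesicle to part from the surface ectoderm (chromosome 13, 40713802 to 40738238). It was at 181, 152 and 198 CPM at 0 h PCS and at 136, 135 and 129 CPM at 6 h PCS. The 6 h libraries were nearly alike and all below the 0 h libraries, which spread more widely. Its log2 fold change was −0.41 (SE 0.138, 95% interval −0.72 to −0.10, edgeR adjusted p = 0.105), from 177 ± 23.1 to 133 ± 3.70 CPM (SD, n = 3). Six3, a homeodomain factor that acts upstream of Pax6 in the lens ectoderm, showed a smaller difference (chromosome 17, 85613608 to 85626191). Its values were 92.8, 86.2 and 88.5 CPM at 0 h PCS and 80.3, 82.8 and 70.9 CPM at 6 h PCS, again without overlap. The log2 fold change was −0.19 (SE 0.127, 95% interval −0.48 to 0.091, edgeR adjusted p = 0.406). Meis1, a homeodomain factor that binds lens enhancers of Pax6, showed no direction (chromosome 11, 18880428 to 19019651). It was at 39.6, 37.2 and 36.2 CPM at 0 h PCS and at 51.3, 40.6 and 34.0 CPM at 6 h PCS. The 6 h libraries reached both above and below the 0 h range. The log2 fold change was 0.15 (SE 0.171, 95% interval −0.23 to 0.54, edgeR adjusted p = 0.638), and it was −0.016 without replicate 1 at 6 h PCS and −0.17 with scaling on library size alone.

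Maf, the large Maf protein that activates crystallin genes in fiber cells, did not pass the test either (chromosome 8, 115703253 to 115706894). It was at 395, 346 and 347 CPM at 0 h PCS and at 365, 234 and 364 CPM at 6 h PCS. Replicate 2 at 6 h PCS was low and the other two lay within the 0 h range. The log2 fold change was −0.18 (SE 0.183, 95% interval −0.59 to 0.23, edgeR adjusted p = 0.611), and −0.014 without that library. Of the factors needed for fiber cells, Prox1 thus passed the test and Maf did not. The log2 ratio of Prox1 to Maf counts was 0.83 ± 0.051 at 0 h PCS and 0.28 ± 0.209 at 6 h PCS (SD, n = 3), a difference of −0.55 with groups that did not overlap, for which no p-value was computed. This pair was picked after both results were seen, and the groups were separated for 25 of the 45 pairs of factors, so separation was the common case.

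Foxe3, the forkhead factor that keeps LECs dividing and marks the lens epithelium, was the single factor with every 6 h library above every 0 h library (chromosome 4, 114924443 to 114926067). It was at 98.4, 79.0 and 83.2 CPM at 0 h PCS and at 111, 106.3 and 99.2 CPM at 6 h PCS. The gap was narrow, since replicate 1 at 0 h PCS nearly reached the lowest 6 h value. Means were 86.9 ± 10.2 and 105.7 ± 6.16 CPM (SD, n = 3), and the log2 fold change was 0.28 (SE 0.135, 95% interval −0.020 to 0.59, edgeR adjusted p = 0.249). Scaling on library size alone gave −0.03, so the sign itself depends on the scaling. The interval holds no fall like those of Pitx3, Prox1 or Sox2 under TMM.

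**Figure D2:**
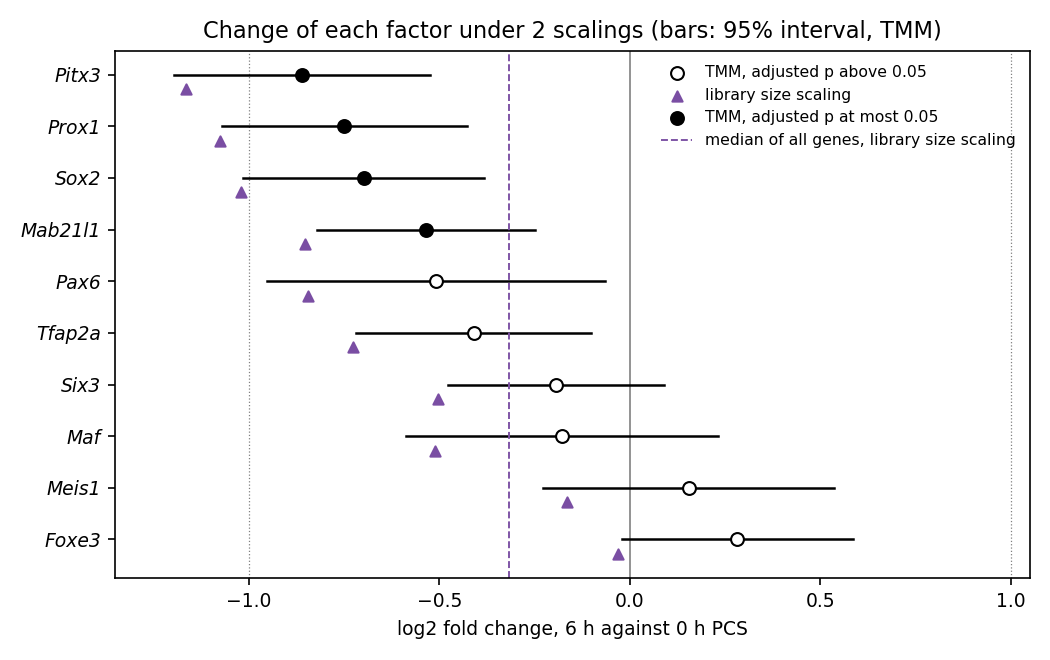
Log2 fold change of each factor, 6 h against 0 h PCS. Circles are TMM-scaled estimates with 95% intervals (filled: adjusted p at most 0.05), triangles are estimates with scaling on library size alone, the dashed line is the median of all genes under that scaling and dotted lines mark 2-fold. Pitx3, Prox1, Sox2 and Mab21l1 are filled, and the triangles lie left of the circles by about the distance of the dashed line from 0.

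The choice of scaling matters for these genes. With scaling on library size alone, the median log2 fold change of all tested genes was −0.32 in place of −0.003, 1827 genes passed the FDR limit as lower and 747 as higher, and 10.9% of tested genes were called lower. Under that scaling 7 factors passed the FDR limit as lower, Pax6, Six3 and Tfap2a being added, and 3 were DEGs (Pitx3, Prox1 and Sox2), where 3.73% of tested genes were lower DEGs. Taken relative to the median gene, the changes were nearly those of the TMM fit, from −0.85 for Pitx3, −0.76 for Prox1 and −0.70 for Sox2 to 0.15 for Meis1 and 0.29 for Foxe3.

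**Figure D3:**
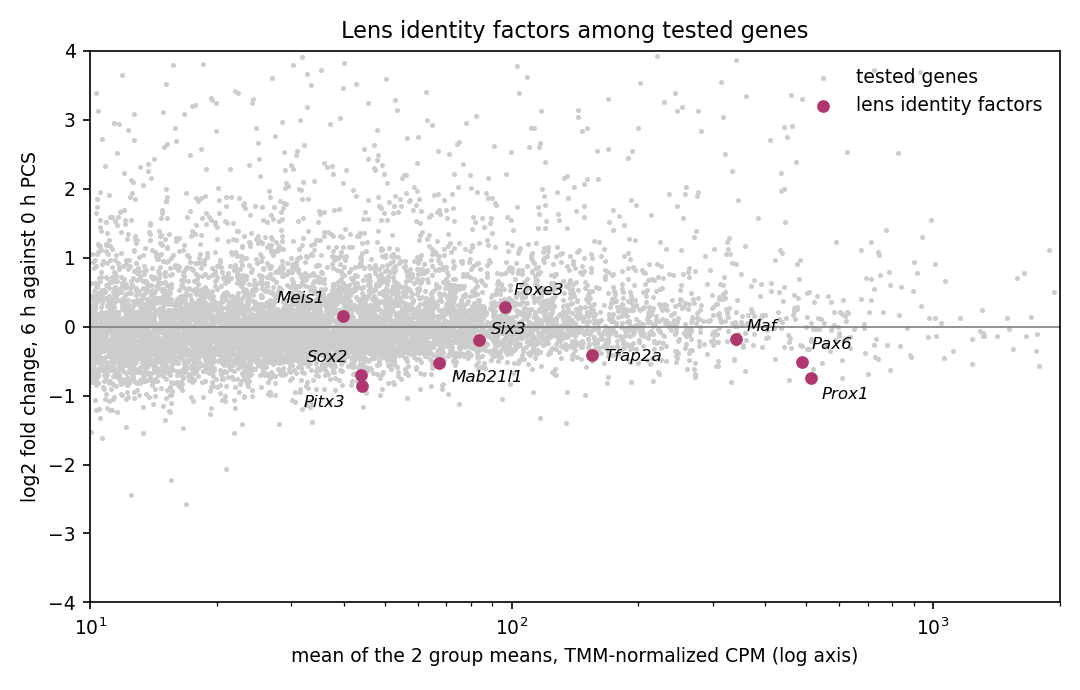
Log2 fold change (6 h against 0 h PCS, TMM) against mean TMM-normalized CPM on a log axis, for 8149 tested genes (grey) with a mean of 10 to 2000 CPM and a log2 fold change within 4 of 0. The 10 lens identity factors (red) all lie between −0.86 and 0.28, while many grey points reach above 2.

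Summed over the 10 factors, the level was 1988 to 2266 CPM at 0 h PCS and 1378 to 1821 CPM at 6 h PCS, and the mean at 6 h PCS was 73.3% of that at 0 h PCS (58.5% with scaling on library size alone). The share of each factor in the summed counts of its own library needs no scaling between libraries. Within this sum Prox1 took 29.8% ± 1.38 at 0 h PCS and 24.2% ± 0.576 at 6 h PCS (SD, n = 3), without overlap. Foxe3 took 4.02% ± 0.374 at 0 h PCS and 6.74% ± 0.855 at 6 h PCS (SD, n = 3), again without overlap. Meis1 (1.75% and 2.65%) and Six3 (4.14% and 4.99%) also held separated, higher shares at 6 h PCS. The shares of the other 6 factors overlapped between time points. A share depends on the other factors in the sum, and Six3 held a higher share at 6 h PCS although its own CPM was lower in every 6 h library.

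The ratio of Foxe3 to each other factor was followed because Foxe3 stood apart, a choice made after its values were seen. Foxe3 counts per Prox1 count were 0.145, 0.129 and 0.130 at 0 h PCS and 0.258, 0.322 and 0.257 at 6 h PCS. Foxe3 counts per Pitx3 count were 1.73, 1.49 and 1.37 at 0 h PCS and 4.10, 3.00 and 3.16 at 6 h PCS. In both pairs every 6 h ratio was above every 0 h ratio, and the geometric mean ratio was 2.06-fold higher for Prox1 and 2.23-fold higher for Pitx3. Against Sox2 it was 1.98-fold higher, against Mab21l1 1.77-fold, against Pax6 1.76-fold, against Tfap2a 1.61-fold, against Maf 1.41-fold and against Six3 1.40-fold. Against Meis1 it was 1.11-fold higher with overlapping groups. The groups were separated for 8 of the 9 factors, and the ratio of Foxe3 to a gene was separated upwards for 29.5% of 16101 tested genes. For the 6 factors with every 6 h library below every 0 h library this separation follows from their own values and those of Foxe3, so nothing is read from the count. These 9 ratios share the Foxe3 counts and are not independent of each other.

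**Figure D4:**
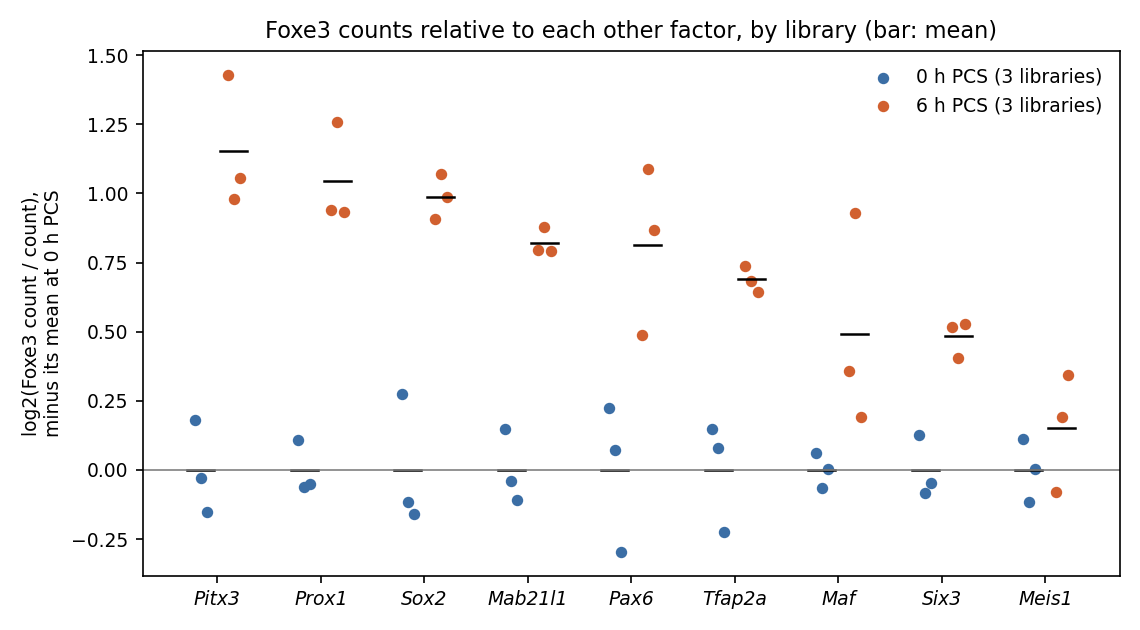
Log2 ratio of Foxe3 counts to the counts of each other factor in every library, minus its mean at 0 h PCS. Points are libraries (blue 0 h PCS, orange 6 h PCS, 3 each) and bars are means. The orange points lie above the blue ones for every factor but Meis1.

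Levels could be compared between genes only for the 4 factors with an exon length at hand, as FPKM, the count per exon length and per total of gene counts, without TMM. These were the same 4 factors that passed the FDR limit, so the order leaves out the other 6, Pax6 and Maf among them. At 0 h PCS Prox1 was at 85.5 ± 3.80, Pitx3 at 41.6 ± 3.58, Mab21l1 at 35.6 ± 2.31 and Sox2 at 29.5 ± 2.73 FPKM (SD, n = 3), the same order in all 3 libraries. At 6 h PCS the means in FPKM were 40.6 ± 1.79 for Prox1, 19.7 ± 1.28 for Mab21l1, 18.6 ± 4.13 for Pitx3 and 14.6 ± 1.02 for Sox2 (SD, n = 3). Prox1 stayed first in every library, while Pitx3 overlapped both Mab21l1 and Sox2 at 6 h PCS. Pitx3 moved from above Mab21l1 to a level that could not be told from it.

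Several of the factors share their locus with another gene, most often a long noncoding RNA. In the RefSeq annotation, 9 genes overlapped 8 of the 10 factors, and none overlapped Foxe3 or Maf. Of these 9, 3 could be named in the counts. Sox2ot, a noncoding RNA whose span contains Sox2 (chromosome 3, 34560381 to 34677993), was at 218, 172 and 196 CPM at 0 h PCS and at 71.1, 96.4 and 53.8 CPM at 6 h PCS. Its 6 h libraries all lay below its 0 h libraries, and it fell further than Sox2 did. Its log2 fold change was −1.40 (SE 0.207, 95% interval −1.87 to −0.94, edgeR adjusted p = 0.00333), which made it a DEG in the fit of all libraries and in each of the 6 fits that left out a library.

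Six3os1, which overlaps the start of the Six3 span (chromosome 17, 85601932 to 85618396), was at 163, 123 and 186 CPM at 0 h PCS and at 114, 98.4 and 77.5 CPM at 6 h PCS. The groups did not overlap, and the log2 fold change of −0.70 (SE 0.191, edgeR adjusted p = 0.0518) just missed the FDR limit. It passed that limit in 8 of 15 other fits, and over all 15 the adjusted p ran from 0.000412 to 0.179. Gm26688, which lies inside the Tfap2a span, was scarce (4.52 and 2.98 CPM, log2 fold change −0.60, adjusted p = 0.360). All 3 noncoding genes thus had a log2 fold change below that of the factor they overlap, and the test of that difference was not run. The strand setting of the counting is not stated, so reads of a factor and of an overlapping gene cannot be told apart with certainty. Pax6os1, Elp4, Gm16141, Nbea, Prox1os and Elovl3, which overlap the other factors, were not analysed here.

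Beyond the 10 factors, a list of 57 other regulators of lens and anterior eye development was drawn up from knowledge of the field. Names were at hand for 25 of them, and the names lean towards changed genes, so the count describes these 25 only. Of the 25, 2 fell and 4 rose past the FDR limit (2.02% and 6.31% of all tested genes), and 1 lower and 3 higher genes were DEGs (0.821% and 4.53%). Their median log2 fold change was 0.16. The groups were separated downwards for 6 and upwards for 7 of the 25, against 15.3% of all tested genes in each direction.

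Gata3, a zinc-finger factor that helps fiber cells leave the cell cycle, fell from 13.1 ± 3.16 to 4.82 ± 1.61 CPM (SD, n = 3), with a log2 fold change of −1.43 (SE 0.309, edgeR adjusted p = 0.0198). The adjusted p of Gata3 reached 0.0863 when single libraries were left out, the call being lost without replicate 1 or replicate 3 at 0 h PCS. Sox1, the close relative of Sox2 that activates gamma-crystallin genes in fiber cells, fell from 76.6 ± 11.5 to 47.4 ± 9.30 CPM (SD, n = 3), with a log2 fold change of −0.69 (SE 0.179, edgeR adjusted p = 0.0428). The Sox1 call was lost without each library but replicate 3 at 6 h PCS, with an adjusted p of up to 0.155, and also without robust estimation (0.0531) and with DESeq2 size factors (0.0509). The changes of Sox1 and Sox2 were of like size, and their intervals (−1.09 to −0.29 and −1.02 to −0.38) largely coincided. Sox3, the other member of this subfamily, was scarce (1.57 and 0.943 CPM) and did not pass the test (log2 fold change −0.73, adjusted p = 0.536).

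Maff and Mafk encode small Maf proteins, which share the DNA-binding part of Maf but lack its activation domain, and the RNA of both rose. Maff was at 41.6, 19.2 and 27.1 CPM at 0 h PCS and at 211, 243 and 323 CPM at 6 h PCS. Its 6 h libraries were all several-fold above the 0 h libraries, a log2 fold change of 3.14 (SE 0.299, edgeR adjusted p = 0.000673). Mafk was at 30.0, 21.6 and 23.5 CPM at 0 h PCS and at 65.0, 59.4 and 94.2 CPM at 6 h PCS, also without overlap. Its log2 fold change was 1.54 (SE 0.207, edgeR adjusted p = 0.00202). Both were DEGs without each library in turn. The 95% intervals of Maff (2.46 to 3.83) and Mafk (1.08 to 2.00) did not reach that of Maf itself (−0.59 to 0.23).

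Sox11, an HMG-box factor of embryonic tissues including the early lens, rose from a low level. It was at 0.947, 1.17 and 1.73 CPM at 0 h PCS and at 4.50, 6.39 and 27.0 CPM at 6 h PCS, with replicate 3 far above the others. The log2 fold change was 3.30 (SE 0.729, edgeR adjusted p = 0.0344). The Sox11 call was lost without each of the 0 h libraries, with an adjusted p of up to 0.150, and with edgeR 4's quasi-likelihood method (adjusted p = 0.0515). Without replicate 3 at 6 h PCS the log2 fold change of Sox11 was 2.09. Tle1, a corepressor of the Groucho family with which Six3 works, rose from 27.8 ± 1.51 to 49.2 ± 15.2 CPM (SD, n = 3), with a log2 fold change of 0.82 (SE 0.214, edgeR adjusted p = 0.0441). The Tle1 call was lost without each library but replicate 2 at 6 h PCS, with an adjusted p of up to 0.150, and also without robust estimation (0.0547) and with scaling on library size alone (log2 fold change 0.48, adjusted p = 0.108). Close relatives of other factors did not pass the test: Six6 (log2 fold change −0.32), Mab21l2 (0.14), Tfap2b (0.24) and Foxc1 (0.58). The signs of Mab21l2 and Tfap2b turned with scaling on library size alone (−0.17 and −0.076).

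**Figure D5:**
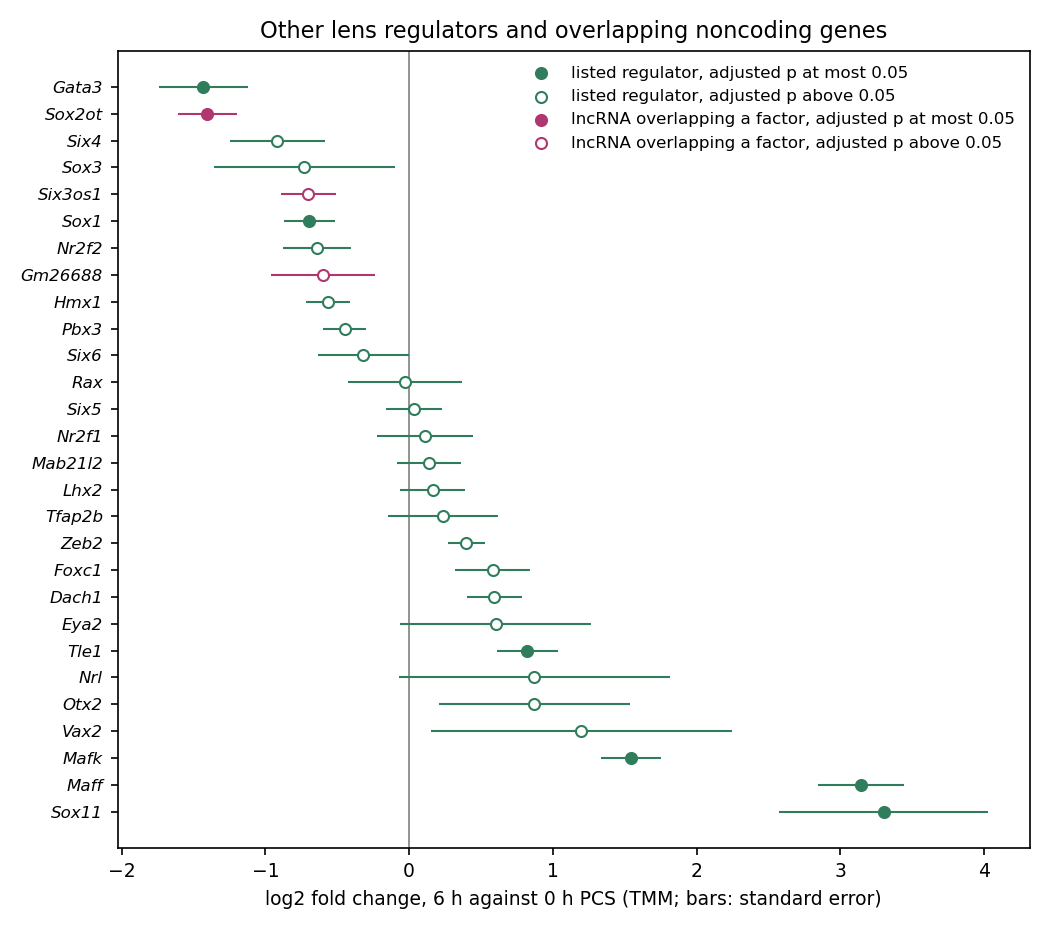
Log2 fold change (6 h against 0 h PCS, TMM) of the 25 named other lens regulators (green) and of the 3 noncoding genes that overlap a factor (red), with standard errors. Filled points have an adjusted p of at most 0.05. Sox11, Maff and Mafk lie farthest to the right, and Gata3 and Sox2ot farthest to the left of the filled points.

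A list of 28 genes known to be controlled by these factors had 6 names at hand. Here too the names lean towards changed genes, so the values describe these 6 only. Pdgfra, the growth factor receptor that drives LEC division and depends on Foxe3, was at 206, 182 and 248 CPM at 0 h PCS and at 122, 143 and 117 CPM at 6 h PCS. It fell without overlap of the groups, by a log2 fold change of −0.73 (SE 0.155, edgeR adjusted p = 0.0179). The Pdgfra call was lost without replicate 1 or 3 at 0 h PCS or replicate 3 at 6 h PCS, with an adjusted p of up to 0.0795. Cdkn1b encodes p27, an inhibitor of the cell cycle that depends on Prox1 in the lens. It fell from 54.8 ± 3.56 to 33.2 ± 3.02 CPM (SD, n = 3), with a log2 fold change of −0.72 (SE 0.140, edgeR adjusted p = 0.0124). The Cdkn1b call was lost without replicate 1 at 0 h PCS (adjusted p = 0.0751). Dnajb1, a heat shock co-chaperone, rose from 36.0 ± 6.81 to 258 ± 74.2 CPM (SD, n = 3), with a log2 fold change of 2.84 (SE 0.232, edgeR adjusted p = 0.000212), and it was a DEG without each library in turn.

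The crystallin targets Crygb and Crygf did not pass the test (log2 fold changes −0.26 and 1.55). Crygb had 124 and 175 counts in replicates 1 and 2 at 6 h PCS and 4195 in replicate 3, against 2407 to 3109 at 0 h PCS. Lgsn, a fiber cell gene, had 334 and 431 counts in the same libraries and 5231 in replicate 3. Of the same marker list, Birc7 had 3, 2 and 179 counts in replicates 1 to 3 at 6 h PCS, against 43 to 120 at 0 h PCS. Caprin2 did not share this pattern, with 616, 697 and 755 counts at 6 h PCS, against 888 to 1185 at 0 h PCS. The 6 h libraries therefore held very unequal amounts of Crygb, Lgsn and Birc7 transcripts, but not of Caprin2.

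The capsules were labelled as LECs, and Pdgfra, Gja1, Epha2 and Slc38a2, the 4 of 12 listed epithelial markers with a name, summed to 978 to 1177 CPM at 0 h PCS and 909 to 1337 CPM at 6 h PCS. These 4 did not move alike, since beside the fall of Pdgfra the log2 fold change was 1.21 for Epha2 (edgeR adjusted p = 0.0134), 0.41 for Gja1 (edgeR adjusted p = 0.260) and −0.46 for Slc38a2 (edgeR adjusted p = 0.133). Markers of other tissues were present and moved between libraries. The 7 of 10 named retinal markers summed to 178 to 893 CPM at 0 h PCS and to 422 to 970 CPM at 6 h PCS. The 4 of 9 named pigment cell markers summed to 51.3 to 209 CPM at 0 h PCS and 77.3 to 1962 CPM at 6 h PCS, replicate 3 being the highest. The 7 of 10 markers of ciliary body and iris summed to 206 to 311 and 256 to 393 CPM, and the 3 of 6 of stroma to 82.2 to 116 and 90.5 to 200 CPM. All 5 red cell genes rose as DEGs, from 7.93 to 19.5 CPM in sum at 0 h PCS to 73.4 to 133 CPM at 6 h PCS. The 2 of 6 corneal epithelial keratins summed to 0.764 to 14.7 and 69.0 to 104 CPM, the 4 of 6 endothelial markers to 4.09 to 26.7 and 20.1 to 36.5 CPM, and the 6 of 10 leukocyte markers to 13.5 to 22.6 and 16.8 to 32.2 CPM. None of the named markers was at 0 in every library, and the names of markers also lean towards changed genes. Pax6, Six3 and Meis1 are also expressed in retina, iris and ciliary body, and Tfap2a in corneal epithelium, and this list is not complete. The part of other tissues in the levels of the 10 factors, the 4 past the FDR limit included, was not tested. Without replicate 3 at 6 h PCS, the library richest in pigment cell markers, Pitx3, Prox1 and Sox2 passed the FDR limit and Mab21l1 did not (adjusted p = 0.0764).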

How the data were processed

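The deposited files hold raw counts per Ensembl gene, 1 library each. The authors used HISAT2 to place read pairs of 101 nt on GRCm38, and HTSeq in union mode for the counting. The kit (SMARTer Stranded Pico) marks strand, but the strand setting of the counting is not given in the sources used here.

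Tools were R 4.3.3 with edgeR 4.0.16, DESeq2 1.42.0 and limma 3.58.1, besides Python 3.11.15. As in the study's methods, TMM scaling, filterByExpr (minimum count 10) by group, robust dispersions and the quasi-likelihood F-test in its earlier form were used, with Benjamini-Hochberg adjustment over 16810 tested genes. DEGs passed an FDR limit of 0.05 and changed more than 2-fold. Standard errors were absolute log2 fold changes over the square root of F. FPKM used total gene counts and the exon lengths of a supplementary table of the study. Read pairs were not collapsed to molecules, so counting error is a lower limit. Each pool held 5 animals by the study's methods, whether pools share animals is not given, and p-values measure the spread between these pools. Replicate libraries differed by more than sampling noise. The fit was tested on simulated data.

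The members and gene lists were chosen with earlier results of these data known. Named genes were the 10 members, genes of the lists of other regulators and known targets past the FDR limit (up to 6 per direction), close relatives of members, and genes overlapping a member. Crygb, Crygf, Lgsn, Birc7, Caprin2, Epha2, Gja1 and Slc38a2 were added after their values were seen. A gene of the target and fiber marker lists, and the fiber marker sum, are not reported here. Symbols came from supplementary tables of the study (7026 of 55421 genes), member IDs from these or by ID, and coordinates from RefSeq for GRCm38.p6. Alternatives were other tools, scalings and filters, a replicate block and leaving out each library. Promoter sequences were not analysed here.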

Additional observations from a re-analysis of the deposited data

How the results depend on the processing

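The 4 factors Mab21l1, Pitx3, Prox1 and Sox2 were the ones past the FDR limit with DESeq2, edgeR's exact test, edgeR 4's quasi-likelihood method, no robust estimation, DESeq2 size factors, at least 10 counts in every library, and the replicate block; without the filter on low counts Pax6 was added. With scaling on library size alone the count was 7 in place of 4, and 3 in place of 0 were DEGs. Leaving out single libraries gave 1 to 5 factors past the FDR limit and 0 DEGs. The other lens regulators past the limit numbered 4 to 9 in the other fits and 2 to 5 when a library was left out, against 6, and were 2 without replicate 1 or replicate 3 at 0 h PCS. Signs turned with library size scaling for Foxe3 (log2 fold change −0.031), Meis1 (−0.17), Tfap2b (−0.076) and Mab21l2 (−0.17). Without replicate 1 at 6 h PCS Meis1 was −0.016 and Tfap2b −0.045, and without replicate 2 at 0 h PCS Six6 was 0.14; over all such fits Meis1 ran from −0.016 to 0.28, Tfap2b from −0.045 to 0.55 and Six6 from −0.53 to 0.14. The cause of these changes was not tested. Whether replicate numbers pair the libraries could not be settled with 3 libraries per time point. The correlations of deviations within a number were 0.0037, 0.223 and 0.139. At 6 h PCS replicates 2 and 3 but not replicate 1 correlated best with their own number. The replicate block gave 4 factors past the FDR limit, 0 DEGs and 7 other regulators. With 3 libraries per time point, intervals such as that of Pax6 span changes from near 0 to near 2-fold.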
